A study of Homo sapiens with 52 samples.

Results

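Mitochondrial RNase P is the enzyme that cuts the 5′ leader from the tRNAs within the long transcripts of mitochondrial DNA. In human cells it consists of protein alone and has 3 subunits, HSD17B10, TRMT10C and PRORP. The rows of these 3 genes were taken by name from the 78894 genes listed, and all 3 passed the filter on low counts in every comparison. HSD17B10 was chosen from these same samples, for its level after knockdown of NRP1, so its knockdown values are given as a description with no test. TRMT10C and PRORP were chosen with earlier results on these samples known.

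Transcripts of the mitochondrial genome carry mRNAs and rRNAs separated by tRNAs, so that cutting out the tRNAs also frees the messages between them. TRMT10C is a methyltransferase that binds the precursor tRNA together with HSD17B10, PRORP is the nuclease that makes the cut, and ELAC2 then trims the other end. HSD17B10 is in addition a dehydrogenase of the mitochondrial matrix that takes part in the breakdown of isoleucine.

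Poly(A) RNA was sequenced in 52 samples of SUM159PT, MDA-MB-231 and HS578T, established breast cancer cell lines of the claudin-low type. They form 18 groups, 16 with 3 samples and 2, HS578T shNRP1#3 and SUM159PT siNRP1#5, with 2 samples. In the siRNA groups, cells of a line received 20 nM of siRNA against NRP1 (siNRP1#3, siNRP1#5) or of a control siRNA (siNT), and RNA was taken after 72 h. In the shRNA groups, cells carried a lentiviral hairpin against NRP1 (shNRP1#3, shNRP1#5) or a control hairpin (shNT) under puromycin, and RNA was taken 48 h after plating. NRP1 is a co-receptor for semaphorins and VEGF, and the #3 reagents target its transmembrane form, whereas the #5 reagents target all forms. The shRNA replicates were successive passages of transduced cells, so p-values there measure only the spread between passages.

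Summed expected counts per sample ranged from 25310443 to 72003442. VIM, the mesenchymal intermediate filament, averaged 2522 TPM or more in the non-targeting controls of each line, and CLDN4 was at or below 0.983 TPM in SUM159PT and HS578T but at 161 TPM in MDA-MB-231. TPM is a level per transcript length, scaled to the same total in each sample. The 3 HS578T siNRP1#5 libraries carried transcripts that mark MDA-MB-231 at 13.2 to 21.7% of the level in that line, judged by 19 genes that HS578T controls lack, and replicate 2 of that group also carried SUM159PT markers at 6.79%. The highest share in any other sample was 6.05%, of MDA-MB-231, in HS578T siNRP1#3 replicate 3. Values of that siNRP1#5 group are also given, where stated, after subtracting these shares of the other lines' siNT levels, with negative counts set to 0. Among the genes of the lists below that were looked up, 8 were called in that group with and without subtraction in the same direction, 2 lost the call, 2 gained it, 1 reversed and 31 were called in neither.

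The sequences that the RNAi reagents target in NRP1 are shown because they can be compared with the 3 genes. They were read 5′ to 3′ from transcript ENST00000374867.7, in the coding part, on the minus strand of chromosome 10 (GRCh38). The siNRP1#3 site lies in exon 15 at chr10:33185638-33185656, the shNRP1#3 site in the same exon at chr10:33185659-33185679, and the site shared by siNRP1#5 and shNRP1#5 in exon 4 at chr10:33263779-33263797. Capitals mark the bases that would pair with the seed (bases 2 to 8) of a guide that starts opposite the 3′ end of the site.
siNRP1#3: taaccacatttCACAAGAa
shNRP1#3: gctgtggatgacaTTAGTATt
siNRP1#5 and shNRP1#5: cagccttgaatGCACTTAt

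The longest run that transcripts of HSD17B10 shared with these sites was 8, 8 and 10 bases in this order, and for the run of 10 bases 2.73% of 61227 named genes held a run at least as long. TRMT10C shared 6, 6 and 9 bases and PRORP 9, 8 and 9. The seed match of siNRP1#3 stood in HSD17B10 and PRORP, as in 16.2% of genes, that of shNRP1#3 only in PRORP among the 3 (9.29% of genes), and that of the #5 site in TRMT10C and PRORP (8.95% of genes). A match is a matter of letters and says nothing on silencing.

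NRP1 itself was lower than the non-targeting control in all 12 knockdown comparisons, by 0.70 to 4.88 on the log2 scale, and passed an adjusted p of 0.05 (edgeR's quasi-likelihood test, adjusted over all genes by Benjamini-Hochberg) in all but HS578T shNRP1#3 (edgeR adjusted p = 0.0690). In MDA-MB-231 siNRP1#3 the fall of 0.70 in counts came without a difference in TPM, 28.5 ± 3.36 against 28.8 ± 3.02 (SD, n = 3 each). Both are totals over the forms of NRP1, of which siNRP1#3 targets the transmembrane form only. For that form the paper reports a knockdown by RT-qPCR in this line.

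HSD17B10 (ENSG00000072506.14) spans chrX:53431258-53434370 on the minus strand of GRCh38. Its RNA was higher after NRP1 knockdown than in the matching control in all 12 comparisons, by 1.60-fold to 3.09-fold, in all 3 lines, with either siRNA and either shRNA. No other gene of the 16331 tested in all 12 reached a log2 fold change of 0.68 in every comparison. These are the values it was chosen for, and they support nothing further. In bulk RNA, more RNA per cell and a larger part of cells that make it cannot be told apart.

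In SUM159PT, HSD17B10 stood at 85.5, 73.5 and 134 TPM in the siNT samples. It stood at 183, 123 and 211 TPM in siNRP1#3 and at 117 and 211 TPM in siNRP1#5, so that the highest control sample lay above the lowest sample of either knockdown. The shRNA samples were tighter. The shNT samples held 55.6, 57.8 and 61.7 TPM, shNRP1#3 131.3, 134.8 and 159, and shNRP1#5 155, 164 and 164.5, with every knockdown sample above every control.

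MDA-MB-231 had the highest levels. Its siNT samples held 226, 254 and 217 TPM, siNRP1#3 377, 372 and 339.8 TPM, and siNRP1#5 262, 389 and 295 TPM. The shNT samples held only 100.1, 99.6 and 98.7 TPM. Those of shNRP1#3, with 230.4, 239 and 247 TPM, and of shNRP1#5, with 290.15, 311 and 284 TPM, were thus near or above the siNT level. No knockdown sample of this line overlapped its own control group.

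HS578T had the lowest levels, with 38.2, 50.2 and 56.5 TPM in siNT and 41.1, 63.4 and 54.5 TPM in shNT. HSD17B10 stood at 74.1, 67.6 and 113 TPM in siNRP1#3, at 97.9, 101.4 and 81.4 TPM in siNRP1#5, at 115 and 99.0 TPM in shNRP1#3 and at 93.3, 105 and 113 TPM in shNRP1#5. The knockdown and control samples did not overlap in any of the 4 comparisons.

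**Figure D1:**
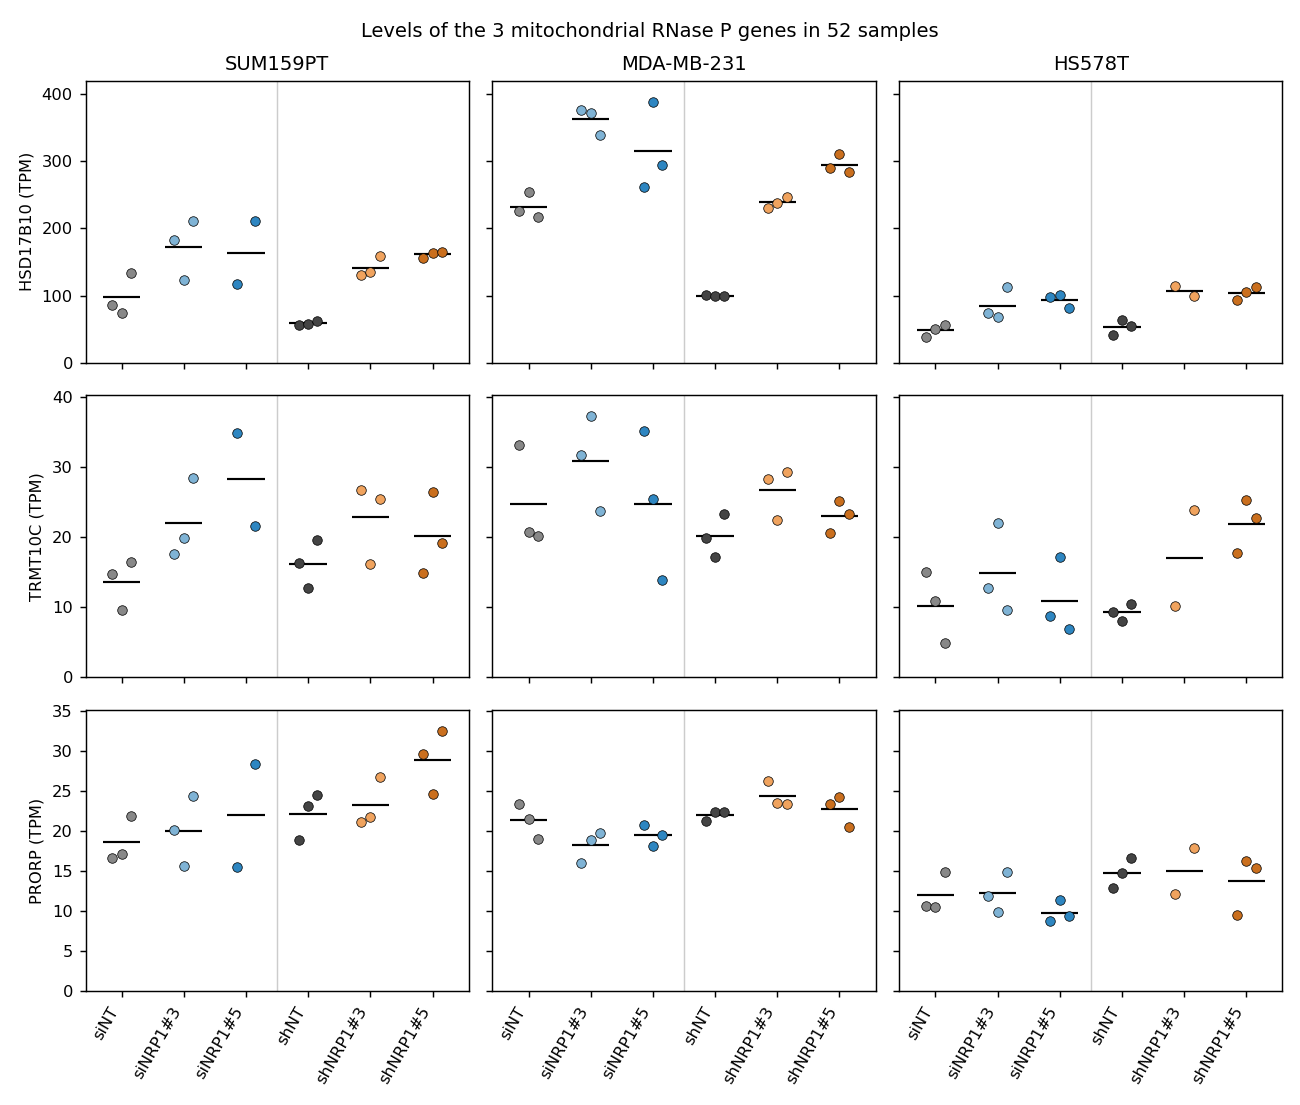
Level of HSD17B10, TRMT10C and PRORP in TPM (vertical axes, each from 0) in every sample of the 6 treatments in SUM159PT, MDA-MB-231 and HS578T, with 1 point for each sample and a bar at the group mean. The HSD17B10 points of the knockdown groups sit above those of their control in 10 of 12 comparisons without overlap, whereas TRMT10C and PRORP points mostly overlap.

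On the scale of the test, log2 fold changes of normalised counts, the change of HSD17B10 in SUM159PT was 0.69 ± 0.205 (SE) with siNRP1#3 and 1.01 ± 0.225 with siNRP1#5. With the shRNAs it was 1.16 ± 0.207 and 1.36 ± 0.208. MDA-MB-231 gave 0.69 ± 0.151 and 0.68 ± 0.151 with the siRNAs and 1.25 ± 0.153 and 1.63 ± 0.154 with the shRNAs. HS578T gave 0.75 ± 0.262 and 0.98 ± 0.263 with the siRNAs, and 0.91 ± 0.287 and 0.73 ± 0.261 with the shRNAs. With the MDA-MB-231 RNA subtracted, the HS578T siNRP1#5 value was 0.91 ± 0.274. Normalised counts of every knockdown sample lay above every control in 11 of 12 comparisons, a pattern that 15.7% of all gene by comparison tests showed. The opposite pattern was shown by 16.3% of them.

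In MDA-MB-231, both siRNAs gave about the same HSD17B10 difference at very different levels of NRP1 RNA summed over its forms. There siNRP1#3 and siNRP1#5 left NRP1 0.70 and 4.88 lower on the log2 scale, and HSD17B10 was 0.69 and 0.68 higher. The totals do not compare like with like, as siNRP1#3 targets the transmembrane form only. By RT-qPCR, the paper found that form repressed with both siRNAs in this line. Whether HSD17B10 follows any form of NRP1 was not tested. The direct difference of siNRP1#5 from siNRP1#3 in that line was -0.01 ± 0.150 for HSD17B10. Across the other direct comparisons of the #5 with the #3 reagents, HSD17B10 differed by -0.18 ± 0.289 (HS578T shRNAs) to 0.37 ± 0.151 (MDA-MB-231 shRNAs).

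The control samples themselves differed. HSD17B10 was lower in shNT than in siNT by 0.91 on the log2 scale in SUM159PT (SE 0.206, edgeR adjusted p = 0.0118) and by 1.40 in MDA-MB-231 (SE 0.154, edgeR adjusted p = 8.00e-06), where 14.4% and 20.6% of all genes passed. In HS578T the difference was 0.10 ± 0.261 (edgeR adjusted p = 0.816, with 17.9% of genes called). Without replicate 3 of SUM159PT shNT the value in SUM159PT was -0.95 with an edgeR adjusted p of 0.0526. A joint test of equal shNT to siNT differences in the 3 lines, added after these values were seen, gave an edgeR adjusted p of 0.00268, where 13.9% of genes passed. These are the controls of the comparisons that HSD17B10 was chosen from, so the contrast is not independent of that choice, and transfection, transduction, selection and time of harvest cannot be told apart here. TRMT10C (-0.46 ± 0.244 in MDA-MB-231, edgeR adjusted p = 0.193) and PRORP (-0.15 ± 0.103 in the same line, edgeR adjusted p = 0.321) did not pass in any line, and their joint tests gave edgeR adjusted p-values of 0.675 and 0.649.

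Between lines, with siNT and shNT controls weighted equally, HSD17B10 was lower in SUM159PT than in MDA-MB-231 by 0.63 on the log2 scale (SE 0.150, edgeR adjusted p = 0.00144) and lower in HS578T than in MDA-MB-231 by 0.79 (SE 0.151, edgeR adjusted p = 0.000122). HS578T and SUM159PT differed by -0.17 ± 0.150 (edgeR adjusted p = 0.336). These values average over unlike controls. Those controls also entered the comparisons that HSD17B10 was chosen from, so the p-values are not independent of that choice. In normalised CPM, siNT means were 45.6 in HS578T, 71.4 in SUM159PT and 132.5 in MDA-MB-231, and shNT means 48.2, 38.7 and 51.2. HS578T thus lay far below MDA-MB-231 in siNT but near it in shNT. The lines were not tested within siNT or shNT alone. Differences between the lines were common among all genes, with 61.7%, 73.2% and 66.4% called in these 3 comparisons. Over the 18 groups the mean level ran from 48.3 TPM in HS578T siNT to 363 TPM in MDA-MB-231 siNRP1#3, a ratio of 7.51 in TPM and of 4.61 in normalised counts. In that order the samples of neighbouring groups overlapped in 13 of 17 steps.

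The promoter of HSD17B10 is shown because the gene's RNA differed in the same direction in all lines. The window surrounds the RefSeq start, which is also that of the leading transcript, and spans chrX:53434321-53434620 on the minus strand (GRCh38.p14). TRMT10C follows, from chr3:101561618-101561917 on the plus strand. Capitals mark matches, on either strand, to 4 motifs picked with these sequences in view: CCAAT (bound by NF-Y), AAGATGGC (YY1), CCGGAAG (ETS factors) and the palindromic NRF1 motif.
HSD17B10: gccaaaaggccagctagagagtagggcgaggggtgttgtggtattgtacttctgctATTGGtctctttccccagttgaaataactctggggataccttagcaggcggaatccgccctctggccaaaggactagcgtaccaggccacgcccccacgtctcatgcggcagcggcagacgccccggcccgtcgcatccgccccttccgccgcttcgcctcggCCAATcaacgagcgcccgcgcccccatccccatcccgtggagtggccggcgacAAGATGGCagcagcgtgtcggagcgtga
TRMT10C: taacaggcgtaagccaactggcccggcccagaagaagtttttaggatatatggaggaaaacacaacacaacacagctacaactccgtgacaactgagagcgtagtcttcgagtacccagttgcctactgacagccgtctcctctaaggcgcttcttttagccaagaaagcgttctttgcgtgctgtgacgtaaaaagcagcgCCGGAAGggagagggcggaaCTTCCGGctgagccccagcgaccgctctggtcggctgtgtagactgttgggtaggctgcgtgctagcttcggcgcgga

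HSD17B10 held CCAAT at position -31 from the start and, on the opposite strand, at -194, and AAGATGGC at position 23. Among 35116 promoter windows listed, 34.6% held CCAAT and 2.89% held AAGATGGC. TRMT10C held CCGGAAG on both strands, at -48 and -28, as did 10.3% of windows on at least 1 strand. The NRF1 motif, in 1.24% of windows, was in neither, and the PRORP window nearest its leading transcript held none of the 4. GC made up 64.0% of the HSD17B10 window and 55.3% of that of TRMT10C, with a median of 58.7% over all windows. These are matches of letters, not binding sites.

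Of the 9 HSD17B10 transcripts listed, HSD17B10-201 led in every sample, with an isoform percent (its share of the gene's transcripts as estimated by RSEM) of 78.1 to 89.7 and a median of 85.0. It encodes the protein from 6 exons. HSD17B10-203 leaves out the last 27 bases of exon 5 and HSD17B10-202 skips the exon. The exon is shown, chrX:53431798-53431906 on the minus strand, with the part left out of HSD17B10-203 in capitals.
exon 5: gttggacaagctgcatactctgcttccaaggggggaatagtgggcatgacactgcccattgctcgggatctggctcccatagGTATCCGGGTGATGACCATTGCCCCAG

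The leading transcript followed the gene. As it holds most of the gene's RNA, its values fall under the choice of HSD17B10 and support nothing further. Its mean TPM was higher after knockdown in all 12 comparisons, and its samples did not overlap the control in 10. HSD17B10-206 and HSD17B10-207, both annotated as retaining an intron, were likewise higher in mean TPM in 12 and apart in 10. The share of all transcripts with such a pattern was not computed. The 8 minor transcripts had medians of 0.075 to 4.54 isoform percent. Differences in the share of HSD17B10-201 between knockdown and control ran from -6.32 to 5.86 percentage points. Its share was 81.0% ± 0.446 in SUM159PT shNT (SD, n = 3) against 86.8% ± 0.524 in shNRP1#3 and 85.2% ± 0.416 in shNRP1#5, but 86.2% ± 1.34 in siNT against 79.9% ± 2.56 in siNRP1#5 (n = 2). HSD17B10-202 held a larger share, without overlap, in siNRP1#5 of SUM159PT, with 5.18% against 0.593% in siNT, and of HS578T, with 3.06% against 0.40%. In MDA-MB-231 it was 2.41% against 1.83%, with overlapping samples. The HS578T siNRP1#5 libraries are those with MDA-MB-231 markers at 13.2 to 21.7%. HSD17B10-202 stood at 2.80 TPM there, against 0.167 TPM in HS578T siNT and 4.21 and 7.58 TPM in MDA-MB-231 siNT and siNRP1#5. Transcript values were not subtracted, so how much of the HS578T share came from MDA-MB-231 RNA was not tested. In the shRNA groups with the same #5 sequence the share of HSD17B10-202 was 0.917% against 1.49% in SUM159PT and 0.967% against 0.86% in HS578T. Short reads assign these shares by model, so small ones are uncertain.

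**Figure D2:**
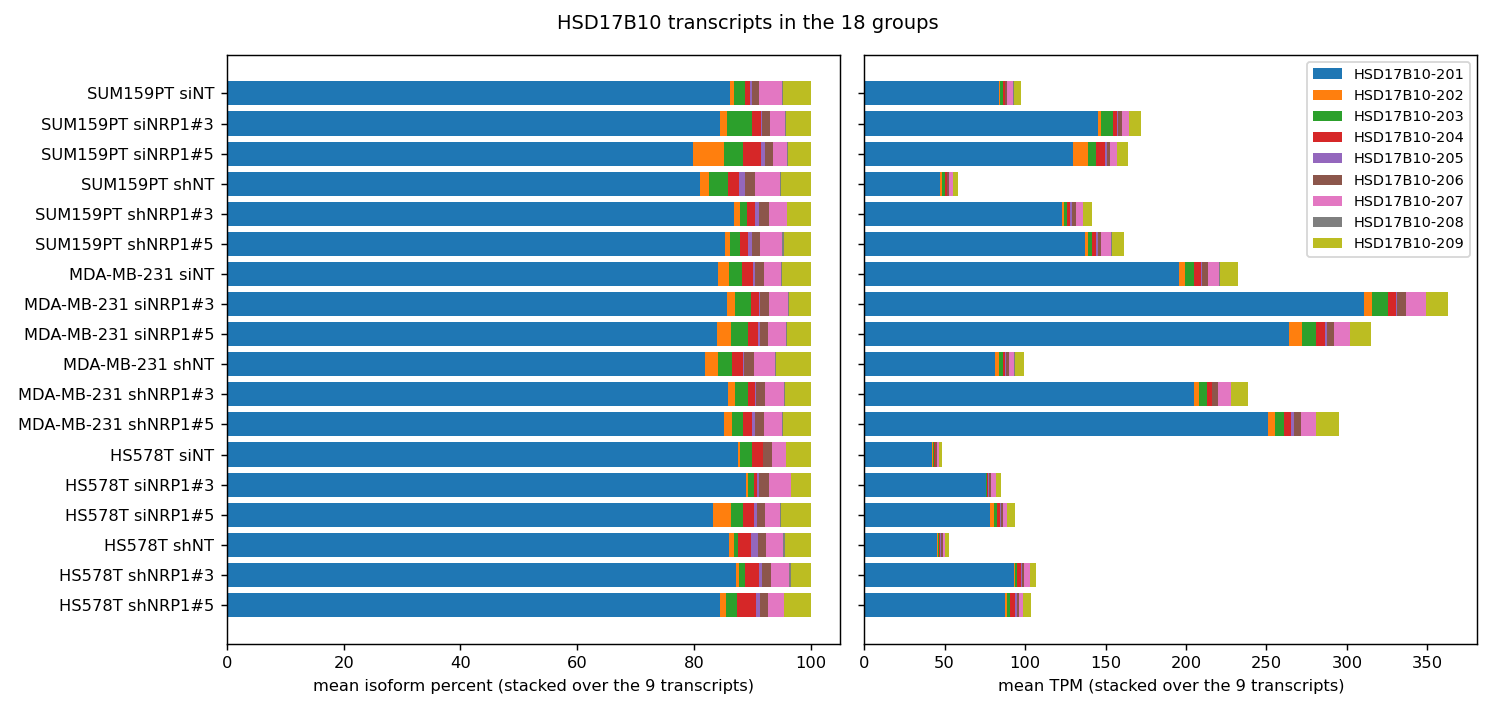
Mean isoform percent (left) and mean TPM (right) of the 9 HSD17B10 transcripts, stacked, in the 18 groups. HSD17B10-201 fills 79.9 to 89.0% of each bar on the left, and the bars on the right are longer in each knockdown group than in its control.

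TRMT10C (ENSG00000174173.7, chr3:101561868-101566446, plus strand) was higher than the control in all 12 comparisons, with log2 fold changes of 0.10 to 1.37. Of the 16331 genes tested in all 12, 331 were higher in all, and each control group served both of its NRP1 reagents. In TPM, the TRMT10C means of MDA-MB-231 siNRP1#5 and siNT were 24.8 and 24.7. TRMT10C rose past the threshold in 1 comparison, SUM159PT siNRP1#5. There it stood at 34.95 and 21.6 TPM against 14.8, 9.59 and 16.5 TPM in siNT, without overlap, a log2 fold change of 1.37 ± 0.316 (edgeR adjusted p = 0.00828), in a comparison where 17.9% of genes were called. The group had 2 samples, and without its replicate 2 the value was 0.82 with an edgeR adjusted p of 0.111. With only these 2 groups in the fit the adjusted p was 0.111 (edgeR) at a value of 1.37.

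The next TRMT10C difference was in HS578T shNRP1#5, 17.8, 25.3 and 22.7 TPM against 9.28, 7.98 and 10.5 TPM in shNT, which did not overlap and gave 1.05 ± 0.351 (edgeR adjusted p = 0.148). In shNRP1#3 of that line the 2 samples were far apart, at 10.2 and 23.9 TPM, with a value of 0.75 ± 0.384 (edgeR adjusted p = 0.755). SUM159PT siNRP1#3 held 17.7, 19.9 and 28.5 TPM, all above siNT, with a value of 0.55 ± 0.288 (edgeR adjusted p = 0.251). In MDA-MB-231, TRMT10C ranged from 13.8 to 37.3 TPM over the 18 samples, each knockdown group overlapped its control, and the 4 values lay between 0.22 and 0.35. HS578T siRNA samples ranged from 4.89 to 22.0 TPM, with values of 0.45 for siNRP1#3 and 0.10 for siNRP1#5, or 0.07 after subtraction of MDA-MB-231 RNA. TRMT10C-201 made up a median 99.8% of the gene.

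PRORP (ENSG00000100890.16, chr14:35121846-35277622, plus strand) passed the threshold in 0 of 12 comparisons by edgeR, was higher in 6 of them and lower in 6, and had log2 fold changes from -0.37 in HS578T siNRP1#5 (-0.40 after subtraction) to 0.36 in SUM159PT siNRP1#5. The nearest to the threshold was MDA-MB-231 siNRP1#3, with 16.0, 18.9 and 19.8 TPM against 23.4, 21.5 and 19.0 TPM in siNT, a value of -0.28 ± 0.103 (edgeR adjusted p = 0.0522). It was the only 1 of the 12 with an unadjusted p under 0.05, and DESeq2 called it, also as the only 1, with an adjusted p of 0.00519. Over all 52 samples PRORP ran from 8.73 to 32.5 TPM, and 10 of 11 transcripts had a TPM above 0 in at least 1 sample. Its counts were whole numbers in 1 of 52 samples, against 52 for TRMT10C and 51 for HSD17B10. Fractions arise where reads that fit several genes are split by model. In the annotation used for positions, the locus overlaps other genes on its own strand, among them a read-through gene (ENSG00000258790). Which genes shared reads with PRORP was not tested.

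The 12 knockdown comparisons called from 0.0356% to 29.4% of genes, which sets how readily any gene passed. In SUM159PT, 8.66% of genes were called with siNRP1#3, 1.4% with shNRP1#3 and 5.94% with shNRP1#5. In MDA-MB-231 the shares were 25.7% with siNRP1#3, 29.4% with siNRP1#5, 3.65% with shNRP1#3 and 20.7% with shNRP1#5. In HS578T they were 4.65% with siNRP1#3, 18.7% with siNRP1#5, 0.0356% with shNRP1#3 and 0.946% with shNRP1#5. So TRMT10C and PRORP were not called in MDA-MB-231 siNRP1#5, where 29.4% of genes were.

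**Figure D3:**
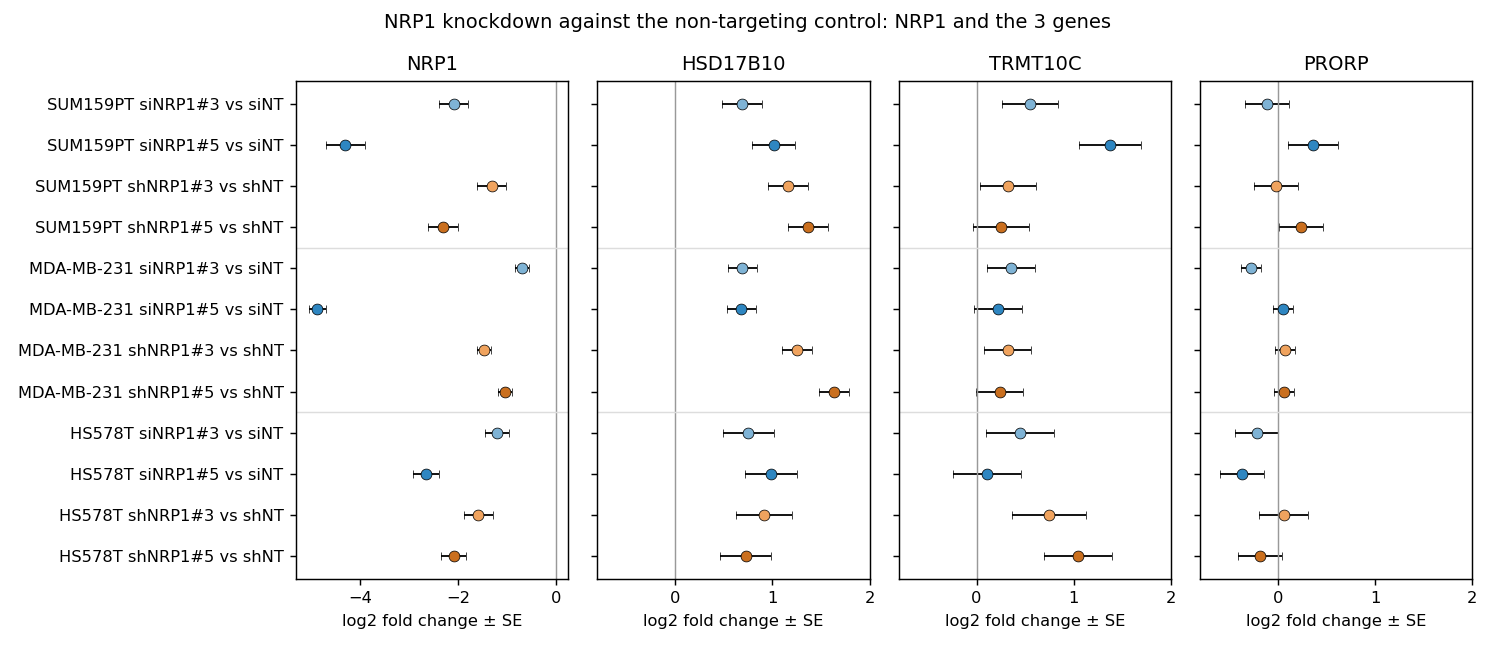
Log2 fold change with SE (horizontal axes; that of NRP1 has its own scale) of NRP1, HSD17B10, TRMT10C and PRORP in the 12 knockdown comparisons, 1 point each. All HSD17B10 points lie between 0.68 and 1.63 and all TRMT10C points above 0, while PRORP points lie on either side of 0.

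Whether a knockdown changed TRMT10C or PRORP by the same amount in the 3 lines was tested with all 52 samples in 1 model, where neither gene passed and only siNRP1#5 gave either an unadjusted p under 0.05. For siNRP1#5, edgeR adjusted p-values were 0.0850 for TRMT10C and 0.139 for PRORP, and 18.2% of genes passed. For siNRP1#3 they were 0.992 and 0.939 (3.42% of genes passed), for shNRP1#3 1 and 1 (0.747%), and for shNRP1#5 0.409 and 0.645 (3.81%).

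Direct comparison of the #5 with the #3 reagents called PRORP in MDA-MB-231, where it was 0.33 ± 0.103 higher on the log2 scale with siNRP1#5 (edgeR adjusted p = 0.0155) in a comparison that called 39% of genes. Its TPM values of 20.8, 18.2 and 19.5 with siNRP1#5 and 16.0, 18.9 and 19.8 with siNRP1#3 overlapped, and the call was lost without replicate 1 or replicate 3 of siNRP1#3 (edgeR adjusted p = 0.0562 and 0.0553) and without the filter on low counts (0.203). TRMT10C was 0.82 ± 0.316 higher with siNRP1#5 in SUM159PT (edgeR adjusted p = 0.0582, and 0.0396 with DESeq2), where 29.7% of genes were called. Neither gene passed in HS578T with siRNAs (18.1% of genes called) or with shRNAs in SUM159PT (8.71%), MDA-MB-231 (14.2%) or HS578T (0.544%).

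Between the non-targeting controls of the lines, PRORP was 0.37 ± 0.128 higher on the log2 scale in SUM159PT than in MDA-MB-231 (edgeR adjusted p = 0.0175, and 0.0506 without replicate 3 of SUM159PT shNT) in normalised counts, but not per length, where SUM159PT held 18.6 ± 2.91 TPM in siNT and 22.2 ± 2.94 in shNT and MDA-MB-231 21.3 ± 2.20 and 22.0 ± 0.619 (SD, n = 3 each). TRMT10C was 0.44 ± 0.207 lower in HS578T than in MDA-MB-231, which missed the threshold (edgeR adjusted p = 0.0640) but passed without replicate 1 of HS578T siNT (edgeR adjusted p = 0.0189).

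Per length, HSD17B10 was the most abundant of the 3 in each of the 52 samples, at a median of 7.55 times the TPM of TRMT10C (range 2.55 to 21.3) and 7.39 times that of PRORP (at most 23.6 times). TRMT10C and PRORP were close, with a median ratio of 1.01 and TRMT10C higher in 27 of 52 samples. Neighbouring groups in the order of TRMT10C or PRORP means overlapped at every step, from 30.9 TPM in MDA-MB-231 siNRP1#3 to 9.25 TPM in HS578T shNT for TRMT10C, and from 28.9 TPM in SUM159PT shNRP1#5 to 9.84 TPM in HS578T siNRP1#5 for PRORP.

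The genes around HSD17B10 were not higher throughout. RIBC1, 0.137 kb away, was higher in 6 of 12 comparisons and passed upward in MDA-MB-231 siNRP1#3 (1.15 ± 0.242, edgeR adjusted p = 0.00175) and downward in SUM159PT siNRP1#5 (-1.62 ± 0.507, edgeR adjusted p = 0.0360). SMC1A, a cohesin subunit 8.53 kb away, was higher in 5 of 12 and fell in 2 of the shNRP1#3 comparisons, in SUM159PT (edgeR adjusted p = 0.0263) and, by 0.81, in MDA-MB-231 (edgeR adjusted p = 0.000371). HUWE1, a ubiquitin ligase, was higher in 4 of 12. HUWE1 and SMC1A were called higher in HS578T siNRP1#5, the group with MDA-MB-231 RNA, by 1.06 and 1.49 (edgeR adjusted p = 0.00146 and 0.000751), but not after subtraction (0.35 and 0.64, edgeR adjusted p = 0.360 and 0.111). Beside PRORP, PPP2R3C was higher in 10 of 12 and fell in 1, MDA-MB-231 siNRP1#3, and PCNP, 7.73 kb from TRMT10C, was higher in 11 of 12 and called in 0 of them by edgeR (1 at an unadjusted p under 0.05, and 0 by DESeq2).

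Other genes of mitochondrial tRNA maturation were called upward more often than downward. Over the 12 comparisons, 8.33% of the 276 tests of the 23 genes on this list were called higher and 1.81% lower, against 5.31% and 6.01% of all 234112 tests. The median log2 fold change was 0.12, against 0.01 for all genes. Of the 23, 14 genes rose in at least 1 comparison, 3 fell in at least 1 and 7 were never called. TRUB2, a pseudouridine synthase, was higher in only 4 of 12, with a lowest value of -0.65. It rose in MDA-MB-231 with siNRP1#3 (0.72 ± 0.147) and siNRP1#5 (0.83 ± 0.147) and in SUM159PT with siNRP1#5 (0.81 ± 0.253). TRMT61B, a tRNA methyltransferase, was higher in all 12 in normalised counts, by as little as 0.0087, and rose in 3, all in MDA-MB-231. With siNRP1#5 its mean TPM was below siNT in SUM159PT (3.82 against 4.74) and HS578T (4.21 against 4.82). YRDC, which makes the precursor of a tRNA modification, rose in SUM159PT siNRP1#5 (1.41 ± 0.438) and both HS578T siRNA comparisons (1.05 with siNRP1#5, and 1.28 after subtraction), and OSGEPL1, which places that modification in mitochondria, rose in MDA-MB-231 siNRP1#3 (0.52 ± 0.168) but fell with siNRP1#5 there by 0.81 and in SUM159PT by 1.07.

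Of 28 genes of mitochondrial RNA synthesis and stability, 15 rose in at least 1 comparison and 3 fell, with 8.33% of 336 tests called higher and 1.19% lower and a median of 0.16. SLIRP, which with LRPPRC protects mitochondrial mRNAs, was higher in all 12 and rose in 4, by up to 1.73 ± 0.303 in SUM159PT siNRP1#5 (edgeR adjusted p = 0.00166). TFB2M, a mitochondrial transcription factor, was higher in all 12 and rose in 3 (also in HS578T siNRP1#5 after subtraction, 1.09), again most in SUM159PT siNRP1#5 (1.48 ± 0.286, edgeR adjusted p = 0.00310). TFAM, which packs mitochondrial DNA, rose in siNRP1#5 of SUM159PT (1.26 ± 0.281) and HS578T (1.47 ± 0.305, and 1.52 after subtraction). MRM3, an rRNA methyltransferase, rose in 3 comparisons but was higher in only 6 of 12, with a lowest value of -0.67.

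The mitochondrially encoded mRNAs lie on the transcripts that RNase P cuts. Of 156 tests of the 13 genes, edgeR called 0 higher (6 at an unadjusted p under 0.05, and 1 by DESeq2) and 4 lower, all in MDA-MB-231 with siRNAs, with a median of -0.12. Without the filter on low counts 8 were called higher and 24 lower. With the filter, 0% of these tests were called higher and 2.56% lower, against 5.31% and 6.01% of all tests. In MDA-MB-231, 25.7% of all genes were called with siNRP1#3 and 29.4% with siNRP1#5. MT-ATP8 fell by 0.71 with siNRP1#3 (edgeR adjusted p = 0.0170) and by 0.58 with siNRP1#5 (edgeR adjusted p = 0.0420), and MT-CYB (-0.64 ± 0.207) and MT-ND5 (-0.66 ± 0.229) fell with siNRP1#5. The extremes were values of MT-ND6 that did not pass, 1.19 ± 0.515 in HS578T siNRP1#5 (0.85 after subtraction) and -1.22 ± 0.695 in SUM159PT siNRP1#3. MT-ND6 stood there at 12.4 ± 6.54 TPM against 5.33 ± 1.67 in siNT, and at 10.1 ± 3.27 TPM against 20.4 ± 10.6 (SD, n = 3 each). Of the 24 mitochondrial rRNA and tRNA genes only the 2 rRNAs passed the filter on low counts, and MT-RNR1 fell in MDA-MB-231 shNRP1#5 (-0.65 ± 0.203, edgeR adjusted p = 0.0299). The tRNAs and their precursors were thus not measured.

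Nuclear RNase P and MRP, an RNA-based enzyme with the same task on nuclear transcripts and its close relative, share no subunit with the mitochondrial enzyme. Of 156 tests of their 13 genes, 8.33% were called higher and 1.28% lower, with a median of 0.10. RPP30 rose in SUM159PT siNRP1#5 (1.37 ± 0.221), HS578T siNRP1#5 (0.86 ± 0.227, and 0.90 after subtraction) and MDA-MB-231 shNRP1#5 (0.59 ± 0.151). RPP40 and RPP38, also protein subunits, each rose in 2 of these, SUM159PT siNRP1#5 and MDA-MB-231 shNRP1#5. RPP25L rose in MDA-MB-231 siNRP1#3 and fell in HS578T siNRP1#5 (-0.98, and -1.64 after subtraction). Without HS578T siNRP1#5, 12 higher calls and 1 lower call remained of 13 and 2.

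The next lists held relatives of the members. TRMT10A, a methyltransferase related to TRMT10C that acts on cytosolic tRNAs, was higher in 11 of 12 and rose in SUM159PT siNRP1#5 (1.58 ± 0.474, edgeR adjusted p = 0.0296). TRMT10B fell in MDA-MB-231 siNRP1#5 (-0.74 ± 0.181). In this list of 5 genes, which also held KHNYN, N4BP1 and ZC3H12A, 3.33% of 60 tests were called higher and 5% lower. In the 17-beta hydroxysteroid dehydrogenase family, to which HSD17B10 belongs by name, 4.17% of 120 tests were called higher and 7.5% lower. The 5 higher calls came to 2 without HS578T siNRP1#5 and to 3 without the filter on low counts. HSD17B11 fell with siNRP1#5 in SUM159PT (-2.58 ± 0.387) and MDA-MB-231 (-2.67 ± 0.157) and HSD17B8 fell in 3 comparisons. In HS578T siNRP1#5, where HSD17B8 stood at 0.743 TPM, its call was upward as deposited (1.63) and downward after subtraction (-5.44), and HSD17B11 went from 0.41 to -4.56, so neither is given a direction there. HSD17B3, tested in 4 comparisons, fell in MDA-MB-231 shNRP1#5. HSD17B12, a fatty acid elongation enzyme, rose in HS578T siNRP1#5 (0.94, and 0.93 after subtraction, edgeR adjusted p = 0.0322) and fell in MDA-MB-231 siNRP1#3.

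Enzymes of isoleucine, leucine and valine breakdown and of fatty acid beta-oxidation, counted as 1 list, were called lower more often than higher. HSD17B10 itself takes part in the breakdown of isoleucine. Of 288 tests of 24 genes, 2.78% were called higher and 8.33% lower, with a median of -0.05. HADHB, a subunit of the trifunctional protein of beta-oxidation, fell with siNRP1#5 in SUM159PT (-2.58 ± 0.211), MDA-MB-231 (-1.60 ± 0.138) and HS578T (-1.55 ± 0.194, and -2.35 after subtraction) and with shNRP1#5 in SUM159PT (-0.86 ± 0.171). ACADVL, the acyl-CoA dehydrogenase for very long chains, fell with siNRP1#5 in all 3 lines, by 0.76 to 1.54, with -0.93 in HS578T after subtraction. HADHB and HSD17B11, looked up after their values were seen, both held the seed match of the #5 site that 8.95% of the 61227 named genes hold. HSD17B11 also held those of siNRP1#3 and shNRP1#3 (16.2% and 9.29% of genes), and HADHB held neither of these. Whether a match bears on a fall was not tested. MCCC1, of leucine breakdown, and ACADM, for medium chains, fell with both siRNAs in MDA-MB-231 and with siNRP1#5 in SUM159PT.

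**Figure D4:**
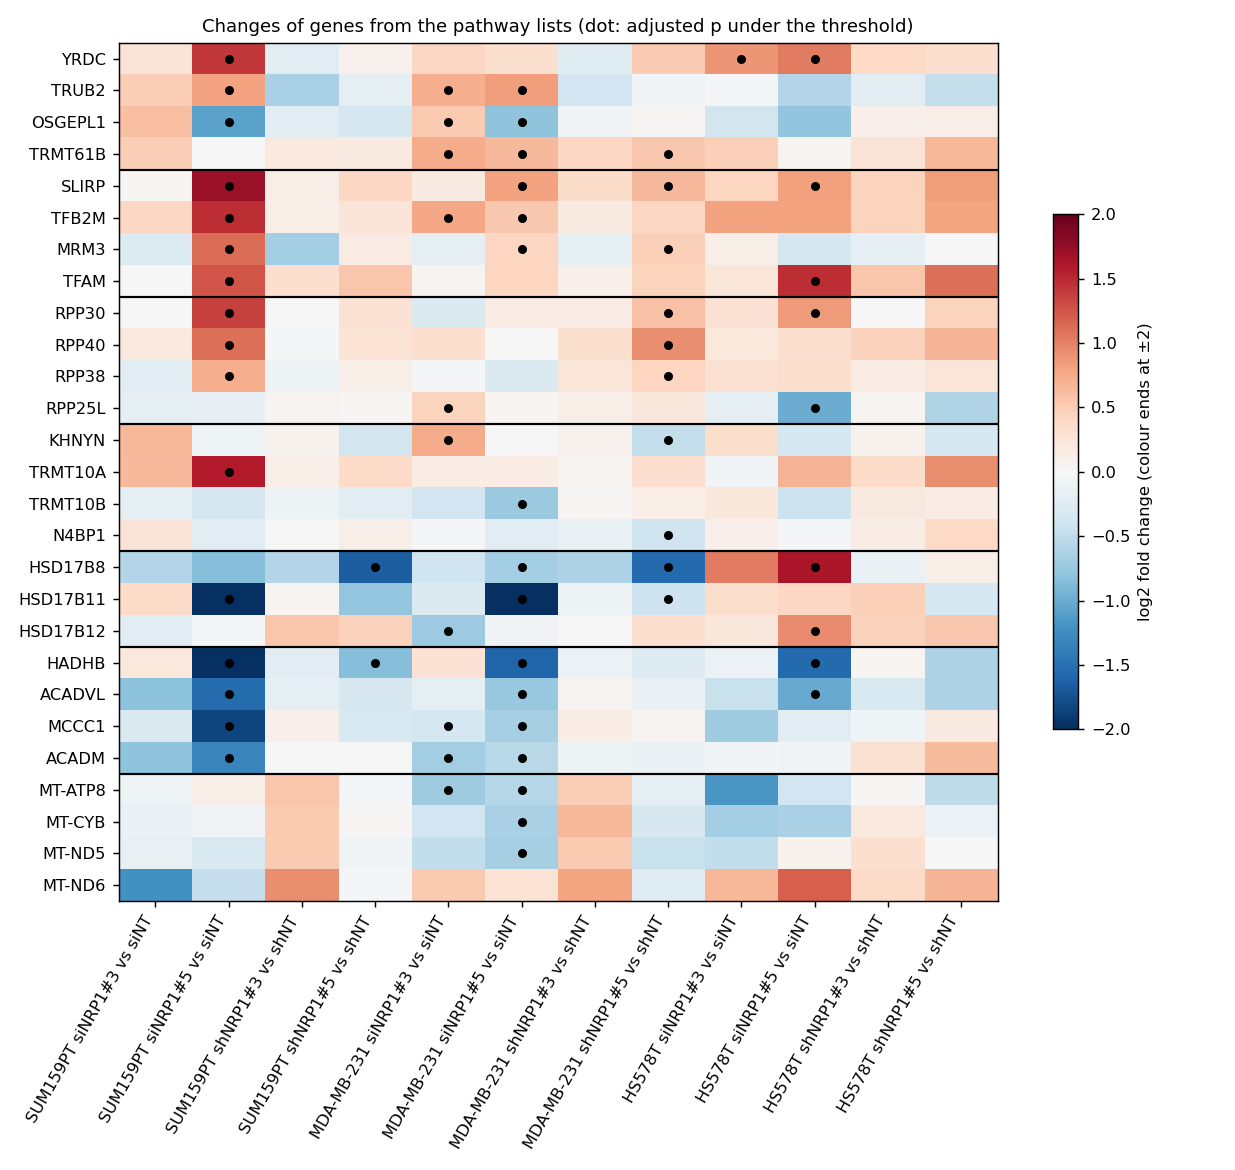
Log2 fold changes (colour, ending at ±2) of named genes of the pathway lists, in rows, in the 12 knockdown comparisons, in columns, with dots where the edgeR adjusted p passed. From top to bottom the blocks are mitochondrial tRNA maturation, mitochondrial RNA synthesis and stability, nuclear RNase P and TRMT10 relatives. Below them come 17-beta hydroxysteroid dehydrogenases, breakdown of isoleucine, leucine, valine and fatty acids, and mitochondrial mRNAs. SLIRP and TFB2M are higher in all 12 columns, and HADHB is lower in the siNRP1#5 columns of all 3 lines.

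The genes most like HSD17B10 across the 52 samples, after the mean of each line and delivery method was taken off, were SNX15 (Pearson r = 0.744), REXO1 (0.731), ATP6V0C (0.725), DYNLRB1 (0.719) and CREM (0.691), among 23415 genes. The samples share control groups, and these values carry no test. TRMT10C came at 0.293 and PRORP at 0.123. TRMT10C was most like FASTKD2, a mitochondrial RNA-binding protein (0.905), SUGT1 (0.890) and BCAS2 (0.883), and PRORP most like TOMM40L (0.776), DNAJC14 (0.773) and MACROH2A1 (0.762). TRMT10C and PRORP had an r of -0.220.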

How the data were processed

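Reads from poly(A)-selected, strand-specific libraries had been trimmed with Trim Galore 0.6.5 after FastQC 0.11.9, aligned with STAR 2.7.2b to GRCh38 and quantified with RSEM 1.3.3 by the authors, who had also removed 2 outlying samples. The authors deposited gene-level expected counts from RSEM, which share out reads that fit several transcripts. Deposited TPM values divide by effective length within each sample, for genes and for transcripts. The isoform percent deposited by the authors is the share of a gene's TPM held by each transcript. Effects of this sharing fall mainly on overlapping genes and similar transcripts.

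Expected counts were rounded and fitted per cell line with edgeR 4.0.16 (TMM normalisation, filterByExpr, quasi-likelihood F-test, Benjamini-Hochberg over all genes tested, threshold 0.05) in R 4.3.3. Comparisons between lines used the non-targeting samples of the 3 lines, and tests of equal changes across lines used all 52 samples. The standard errors and log2 fold changes come from that model. Similarity of genes used log2 normalised counts with a prior count of 2. Total counts of 25310443 or more per sample limited counting error for the 3 genes. The genes were placed with GENCODE annotation of GRCh38 in a version other than the one used for counting, and promoter windows came from RefSeq.

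The 3 genes, the gene lists and the tests were chosen with earlier results of these data known, and the promoter motifs with the sequences in view. Besides the 3 genes and NRP1, the text names up to 4 genes of each list called in the most knockdown comparisons, the extremes of the mitochondrial mRNAs, the chromosomal neighbours, and the genes most correlated with each of the 3. Alternatives were DESeq2 1.42.0, RLE size factors, no filter on low counts, a replicate block, a fit of only the compared groups, subtraction of RNA of other lines (genes at 0.5 CPM or less in a line and 20 or more in another), log2(TPM + 0.1), and leaving out each sample. Same-numbered samples were not taken as paired: deviations of 22 of 34 such pairs correlated above 0.1, and every pair did so in 4 comparisons with 3 pairs. Replicates of a group differed beyond sampling noise. The procedure was tested on simulated counts.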

Additional observations from a re-analysis of the deposited data

Results flagged for a closer look

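The shNT to siNT difference of HSD17B10 was unlike in the 3 lines. On the log2 scale, MDA-MB-231 gave -1.40, SUM159PT -0.91 and HS578T 0.10, and a test of equal differences gave an edgeR adjusted p of 0.00268. With a replicate block it was 0.00189, and with RNA of other lines subtracted 0.00290. The test was added after the values were seen, and 13.9% of all genes passed it. These controls also entered the comparisons that HSD17B10 was chosen from, so the p-values are not independent of that choice. HSD17B10 was lower in all 3 shNT than in all 3 siNT samples of SUM159PT and MDA-MB-231, whereas the samples of HS578T overlapped.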

How the results depend on the processing

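No call on the 3 genes changed direction past the threshold under an alternative. The replicate block changed no call of the 3 genes (88 values), nor did subtraction of RNA of other lines (88 values). DESeq2 called PRORP in 1 knockdown comparison, MDA-MB-231 siNRP1#3 (-0.28, adjusted p = 0.00519). TRMT10C in SUM159PT siNRP1#5 against siNRP1#3 missed the threshold in the main fit (edgeR adjusted p = 0.0582). It passed with DESeq2 (0.85, adjusted p = 0.0396) and with RLE size factors (0.85, edgeR adjusted p = 0.0494). With low counts kept it also passed (0.82, edgeR adjusted p = 0.0471). When low counts were kept, TRMT10C passed in 2 knockdown comparisons, the added one being HS578T shNRP1#5 (1.06, edgeR adjusted p = 0.0190), TRMT10C passed between HS578T and MDA-MB-231 (-0.53, edgeR adjusted p = 0.0111) and PRORP did not between SUM159PT and MDA-MB-231 (0.28, edgeR adjusted p = 0.259) or between the siRNAs in MDA-MB-231 (0.32, edgeR adjusted p = 0.203). With only the 2 groups compared in the fit, TRMT10C passed in 0 (SUM159PT siNRP1#5, 1.37, edgeR adjusted p = 0.111). As differences of mean log2(TPM + 0.1), HSD17B10 gave 0.99 in HS578T shNRP1#5 and 1.57 in MDA-MB-231 shNRP1#5. In normalised counts the highest group mean was 4.61 times the lowest for HSD17B10, 2.16 times for TRMT10C and 1.75 times for PRORP. HSD17B10-201 held 82.1% of the gene's expected counts. The cause of these shifts was not tested.

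Leaving out single samples left 464 of 474 values on their side. HSD17B10 in SUM159PT shNT against siNT ranged from -1.02 to -0.70. PRORP in MDA-MB-231 siNRP1#3 ranged from -0.34 to -0.25 and passed without siNRP1#3 replicate 2 (edgeR adjusted p = 0.0426). PRORP between SUM159PT and MDA-MB-231 ranged from 0.32 to 0.42 and did not pass without SUM159PT shNT replicate 3 (edgeR adjusted p = 0.0506). TRMT10C between HS578T and MDA-MB-231 ranged from -0.58 to -0.28 and passed without HS578T siNT replicate 1 (edgeR adjusted p = 0.0189). TRMT10C in SUM159PT siNRP1#5 ranged from 0.82 to 1.75, the lone sample then being assumed to vary like the other groups. Without HS578T siNRP1#5, an alternative added after seeing the data, higher calls went from 5 to 2 in the 17-beta family and from 3 to 1 among the neighbours, and lower calls from 2 to 1 for nuclear RNase P. Subtraction for the named list genes in that group, added likewise, reversed HSD17B8 (from 1.63 to -5.44).

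Counts of all genes called moved by over 1.5 times in several comparisons. In HS578T shNRP1#3 they went from 7 to 18 with the block, 2 with subtraction, 146 with DESeq2, 252 without the filter and 0 with only 2 groups. In HS578T shNRP1#5 they went from 186 to 331, 58, 981, 1076 and 0 in that order. For HS578T shNRP1#5 against shNRP1#3, 107 became 62 with subtraction, 475 with DESeq2 and 485 without the filter, and HS578T siNRP1#3 went from 914 to 1642 and 1612 with the last 2. SUM159PT shNRP1#3 went from 281 to 452 with the block, 740 with DESeq2, 831 without the filter and 488 with only 2 groups, and MDA-MB-231 shNRP1#3 from 686 to 1138, 1538 and 2044 with the last 3. The block took SUM159PT shNT against siNT from 2890 to 4359, DESeq2 took SUM159PT siNRP1#3 from 1737 to 2694, and no filter took SUM159PT shNRP1#5 from 1192 to 2046. Fits of only 2 groups took SUM159PT siNRP1#3 from 1737 to 1080, SUM159PT siNRP1#5 from 3590 to 59, MDA-MB-231 siNRP1#5 from 5518 to 2136 and MDA-MB-231 shNRP1#5 from 3899 to 6823.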
